A study of Mus musculus with 6 samples.

Results

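Aminoacyl-tRNA synthetases are the enzymes that join each amino acid to its transfer RNA. Transcripts of 36 of their genes were looked for in the brains of mouse embryos from diabetic and untreated mothers: 20 genes of enzymes that work in the cytosol and 16 genes, with symbols ending in 2, of enzymes that work in mitochondria. The members were chosen by gene symbol. Among the 12393 genes named by probe sets whose annotation lists 1 gene, 26 were found, 18 cytosolic and 8 mitochondrial. Each gene was represented by 1 probe set, the one with the highest mean signal, and all 26 passed the minimum mean signal of 100 that was set for a contrast. The member nearest to that minimum was Ears2, with a mean signal of 140, followed by Iars2 with 259. The 10 symbols not found were Dars and Mars among the cytosolic genes and Aars2, Cars2, Lars2, Mars2, Nars2, Vars2, Wars2 and Yars2 among the mitochondrial genes, and they were not analysed here.

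The arrays held 1 brain each, from Swiss albino mouse embryos at stage E11.5. The control group was 3 brains of embryos from untreated normal mice, and the diabetic group was 3 brains of embryos whose mothers had been given streptozotocin, which destroys pancreatic beta cells and so brings on diabetes. The brains of the diabetic group were chosen as malformed ones, so an effect of the mother's diabetes and one of malformation cannot be told apart. The sources do not say whether embryos shared a litter, and p-values measure the spread between these brains only.

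Replicates 1 and 2 of both groups were hybridised to 1 array design and their values form the first table. Replicate 3 of both groups was hybridised to another design and forms the second table, and every difference below was taken within a table. Correlations across genes, which are no replicates, were 0.937 to 0.975 within a table and 0.880 to 0.931 between tables. Control replicate 1 stood apart in its 18S ribosomal RNA signal, 7891 against 101 to 265 on the other arrays. All 16 neural progenitor and neuron markers looked for had a mean signal above the minimum, the lowest at 112. A level is a linear probe set signal, and signals of different genes are not comparable because each probe set binds with its own strength. A change is the diabetic minus the control value on the scale log2(signal + 32), on which changes of dim probe sets appear smaller than they are.

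Cells keep separate sets of synthetases for translation on cytosolic ribosomes and on mitochondrial ribosomes, both encoded in the nucleus. Gars and Kars are exceptions, since each of these genes makes both the cytosolic and the mitochondrial enzyme. In a growing embryonic brain the cytosolic set serves the bulk of protein synthesis. Transcription of many cytosolic synthetase genes is raised by Atf4, the transcription factor that cells make when amino acids run short or the endoplasmic reticulum is stressed, whereas mitochondrial synthetase genes are not known as a group to belong to that response.

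The first question was which synthetase transcripts differed between the groups. Most cytosolic synthetases had a higher fitted value in the diabetic group, by small amounts: 16 of 18 changes lay above 0, with a median of 0.17, against 52.2% of all 8627 genes tested and a median of 0.012 over all of them. Among mitochondrial synthetases, 4 of 8 changes lay above 0 and 4 below, with a median of -0.027. None of the 26 passed the adjustment: limma with Benjamini-Hochberg adjustment over all genes tested called 0 of 26 synthetases and 0 of 8627 genes (0%), and adjusted p of the synthetases ran from 0.604 to 0.991. At an unadjusted p under 0.05, limma counted 659 of all genes. Of the synthetases, 3 cytosolic genes, Sars, Vars and Yars, were among the 3.73% of genes counted there as higher, and 0 were among the 3.91% counted as lower.

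**Figure D1:**
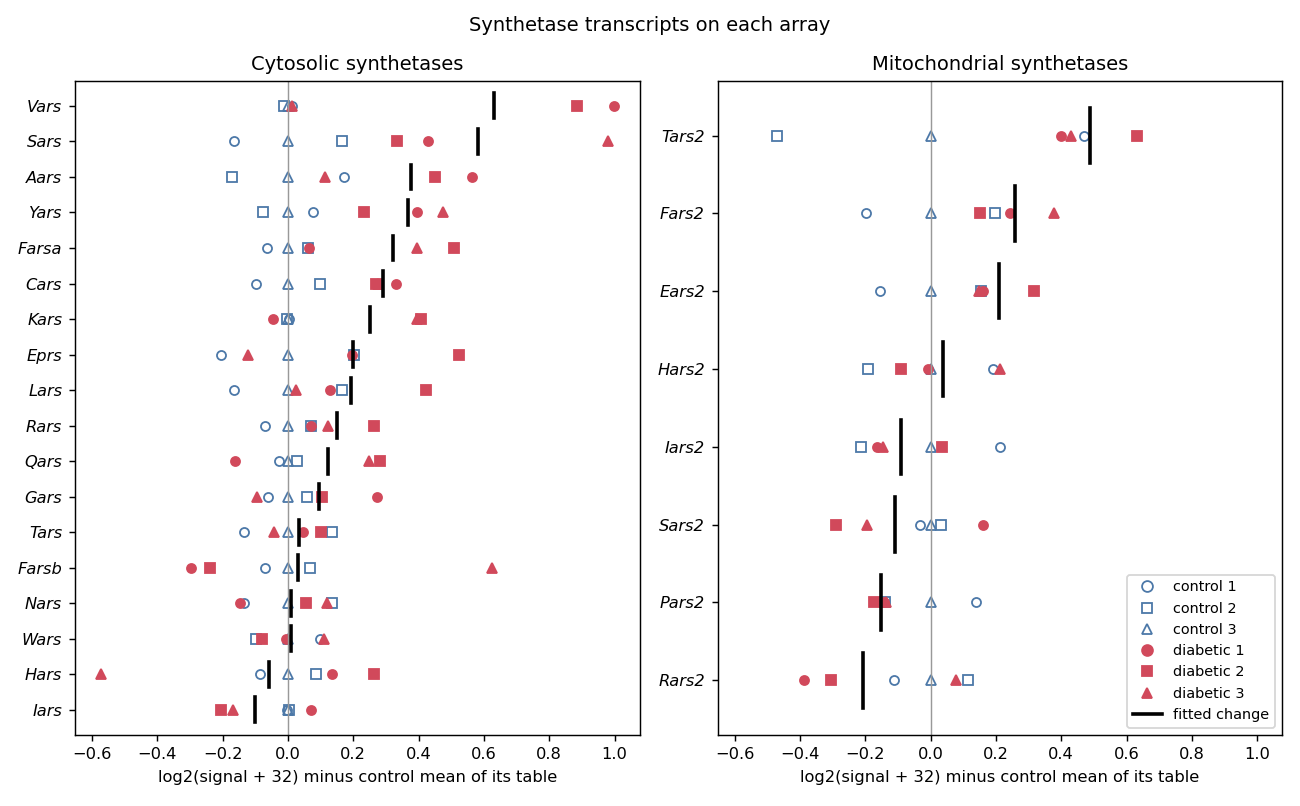
Difference of each array from the control mean of its own table, on the log2(signal + 32) scale, for the 18 cytosolic and 8 mitochondrial synthetases, with open symbols for control and filled symbols for diabetic brains and a black bar for the fitted change. Control replicate 3 is the only control of its table and so sits at 0. Fitted changes run from -0.10 for Iars to 0.63 for Vars among cytosolic genes and from -0.21 for Rars2 to 0.49 for Tars2 among mitochondrial genes.

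Sars, which charges serine tRNA and also the tRNA that carries selenocysteine, had signals of 1625, 2048 and 896 in control brains 1 to 3 and 2469, 2309 and 1799 in diabetic brains 1 to 3. Within each table both groups were apart, with every diabetic brain above every control brain, by means of 0.38 (first table) and 0.98 (second table) on the log2 scale. Controls averaged 1523 ± 582 (SD, n = 3) and diabetic brains 2192 ± 350 (SD, n = 3), where each SD pools both array designs and so includes the offset between them. The change, fitted within tables, was 0.58 ± 0.18 (SE, n = 3 per group; 95% interval 0.17 to 0.99), with an adjusted p of 0.604 in limma. Its other probe set gave 0.54, also without overlap.

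Vars, the valine enzyme, which travels with the elongation factor 1 complex that delivers charged tRNA to the ribosome, had signals of 964, 949 and 515 in control brains 1 to 3 and 1943, 1793 and 519 in diabetic brains 1 to 3. The diabetic brains of the first table lay far above its controls, while the pair of the second table differed by 0.012 on the log2 scale. The fitted change was 0.63 ± 0.20 (SE, n = 3 per group; 95% interval 0.17 to 1.09), with an adjusted p of 0.607 in limma. The first table alone gave 0.94.

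Yars, the tyrosine enzyme, had signals of 894, 800 and 493 on the control and 1122, 999 and 697 on the diabetic replicates 1 to 3. Its groups did not overlap in either table, with changes of 0.31 in the first and 0.47 in the second, and a fitted change of 0.37 ± 0.15 (SE, n = 3 per group; adjusted p of 0.647 in limma). Cars, the cysteine enzyme, was as even across tables, with 0.30 and 0.27. Its signals were 642, 741 and 431 on the control and 876, 839 and 528 on the diabetic replicates 1 to 3, and its fitted change was 0.29 ± 0.15 (SE, n = 3 per group; adjusted p of 0.678 in limma). Yars and Cars were the most even of the cytosolic members without overlap, as each diabetic brain stood 0.23 to 0.47 above the control mean of its table.

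Aars, the alanine enzyme, had signals of 1237, 970 and 1248 on the control and 1634, 1509 and 1353 on the diabetic replicates 1 to 3. The diabetic brains were above the controls in both tables, by 0.51 in the first and 0.11 in the second. The fitted change was 0.38 ± 0.17 (SE, n = 3 per group; adjusted p of 0.654 in limma), and the second probe set of Aars gave 0.15, made up of 0.40 within the first table and -0.36 within the second.

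Phenylalanine is charged by an enzyme of 2 kinds of subunit, and on the probe sets used its subunit genes did not share a pattern. Farsa, the alpha subunit, had signals of 687, 752 and 658 on the control and 753, 1035 and 875 on the diabetic replicates 1 to 3. Diabetic replicate 1 exceeded control replicate 2 by less than 1 signal unit, so the separation of the groups is bare in the first table. The fitted change of Farsa was 0.32 ± 0.17 (SE, n = 3 per group; adjusted p of 0.678 in limma). Farsb, the beta subunit, had signals of 917, 1012 and 1085 on the control and 778, 812 and 1692 on the diabetic replicates 1 to 3. It was lower in the diabetic brains of the first table, by 0.27, and higher in the second, by 0.63, and its fitted change was 0.030 ± 0.20. Other Farsb probe sets above the minimum gave 0.27, with 0.045 and 0.71 in the tables, and 0.033, with -0.24 and 0.57. The contrast with Farsa thus rests on the probe set used.

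**Figure D2:**
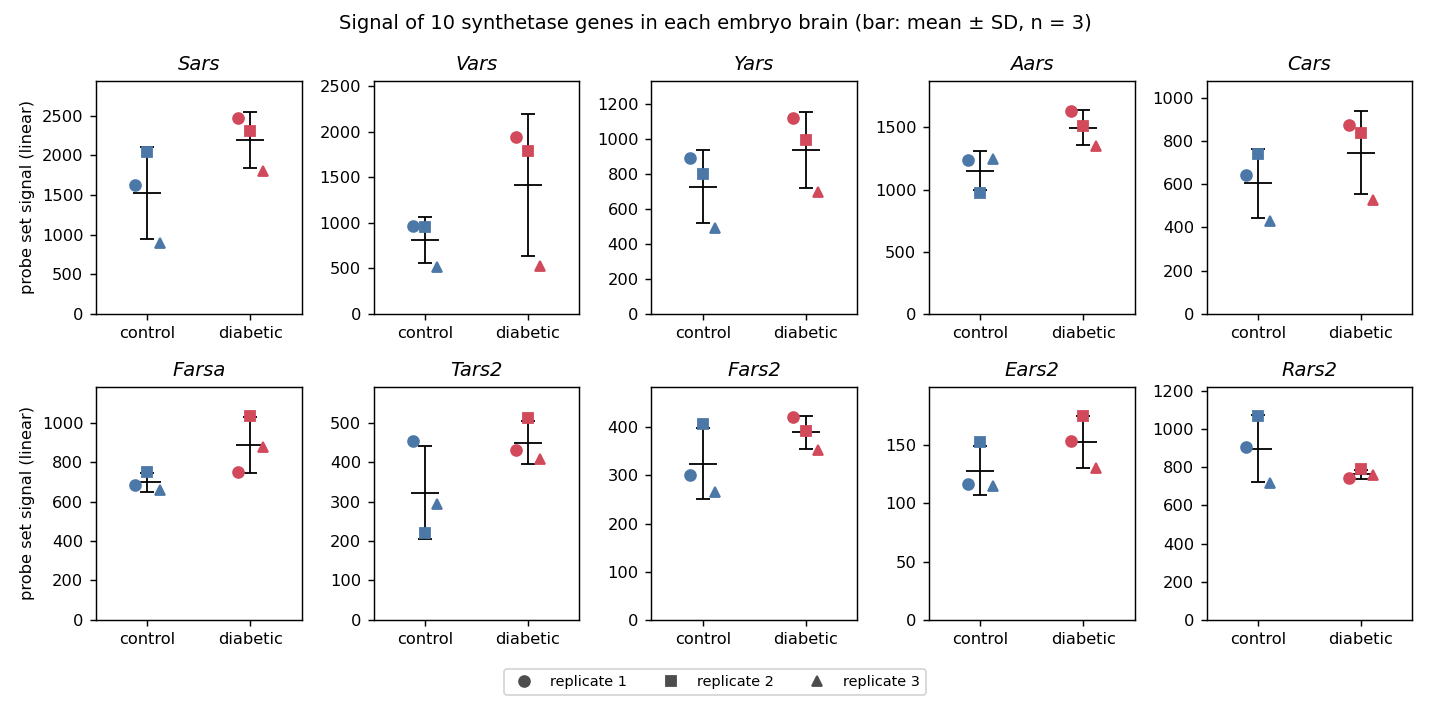
Linear probe set signal of 6 cytosolic and 4 mitochondrial synthetase genes in each of 3 control and 3 diabetic brains, with the mean and SD of each group as bars and the replicate number as the symbol. Replicate 3 of both groups belongs to the second table, on another array design, and for Sars, Vars, Yars, Aars, Cars, Farsa and Ears2 every diabetic brain lies above the control brains of its table. Mean and SD pool both designs, so the SD includes the offset between them.

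These 6 genes, Sars, Vars, Yars, Aars, Cars and Farsa, were the cytosolic members whose diabetic arrays all lay above the control arrays within each table. That is 6 of 18, where 11.3% of all genes tested showed the same, and 0 of 18 lay wholly below, where 10.6% of all genes did. The 12 other cytosolic changes ran from -0.10 to 0.25. Kars, the lysine enzyme, had 0.25 ± 0.17, with signals of 1624, 1616 and 1754 on the control and 1569, 2157 and 2318 on the diabetic replicates 1 to 3: its controls were close together, and 2 of 3 diabetic brains lay above them. Lars, the leucine enzyme and a sensor of leucine for growth signalling, had 0.19, Rars, the arginine enzyme, 0.15, Qars, the glutamine enzyme, 0.12, and Gars, the glycine enzyme, 0.094. Nars, Tars and Wars, the enzymes for asparagine, threonine and tryptophan, lay between 0.0088 and 0.035. The members below 0 were Iars, the isoleucine enzyme, with -0.10 ± 0.16, and Hars, the histidine enzyme, with -0.059 ± 0.19. The first table gave Hars 0.20 and the second -0.57, where its control signal was 2446, against 1080 and 1219 on the controls of the first table. The other probe set of Hars gave -0.12, with -0.046 and -0.27 in the tables.

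For 10 of the 26 members several probe sets passed the minimum signal, and for Eprs and Wars these differed in sign. Eprs makes a fused enzyme for glutamate and proline. The probe set used gave 0.20, from signals of 840, 1124 and 863 on the control and 1117, 1411 and 791 on the diabetic replicates 1 to 3, and the other probe sets gave 0.077 and -0.13. The 4 probe sets of Wars, which interferon induces in many cells, gave changes from -0.11 to 0.20. Signals of the one used were 1678, 1459 and 898 on the control and 1558, 1480 and 973 on the diabetic replicates 1 to 3, so its groups overlapped.

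Among mitochondrial synthetases, Tars2, the threonine enzyme, had the highest change, 0.49 ± 0.23 (SE, n = 3 per group; adjusted p of 0.661 in limma). Its signals were 454, 221 and 294 on the control and 430, 511 and 407 on the diabetic replicates 1 to 3, and control replicate 1 lay between the diabetic brains of its table. Without control replicate 1 the change of Tars2 was 0.75, without control replicate 2 it was 0.21, and its second probe set gave 0.022. Fars2, the phenylalanine enzyme of mitochondria, had 302, 407 and 265 on the control and 421, 393 and 354 on the diabetic replicates 1 to 3, which overlapped in the first table, and a change of 0.26 ± 0.17.

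Ears2, the glutamate enzyme, had signals of 117, 152 and 115 on the control and 153, 175 and 130 on the diabetic replicates 1 to 3. Its diabetic brains lay above the controls in both tables, by under 1 signal unit for the closest pair, and the change was 0.21 ± 0.16. Other probe sets of Ears2, with mean signals of 93 and 21 that are under the minimum, gave -0.037 and -0.22, with overlap. Rars2, the arginine enzyme, had 907, 1067 and 719 on the control and 744, 791 and 759 on the diabetic replicates 1 to 3. It was lower in both diabetic brains of the first table and higher in that of the second, with a change of -0.21 ± 0.17 (95% interval -0.58 to 0.17). Pars2, the proline enzyme, was the only synthetase whose diabetic brains lay wholly below the controls, with 376, 304 and 226 on the control and 303, 296 and 202 on the diabetic replicates 1 to 3 and a change of -0.15 ± 0.15. Sars2, Iars2 and Hars2, for serine, isoleucine and histidine, had -0.11, -0.092 and 0.039. Ears2 and Pars2 were thus the mitochondrial members without overlap, 1 of 8 above and 1 of 8 below, near the 11.3% and 10.6% of all genes.

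Agreement between the tables was examined next, since each table is a comparison of its own. Of the cytosolic synthetases, 10 of 18 lay above 0 in both tables and 1, Iars, lay below 0 in both, against 27.5% and 23.9% of all genes tested. These counts rest on 1 probe set per gene. Second probe sets of Iars and Aars gave 0.16 and 0.40 in the first table but -0.37 and -0.36 in the second. That of Nars, which is in neither count, gave 0.17 and 0.060. The mitochondrial ones had 3 of 8 above 0 in both, Tars2, Fars2 and Ears2, and 3 of 8 below in both, Pars2, Sars2 and Iars2. The second table holds 1 brain of each group and has no replicate check of its own.

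**Figure D3:**
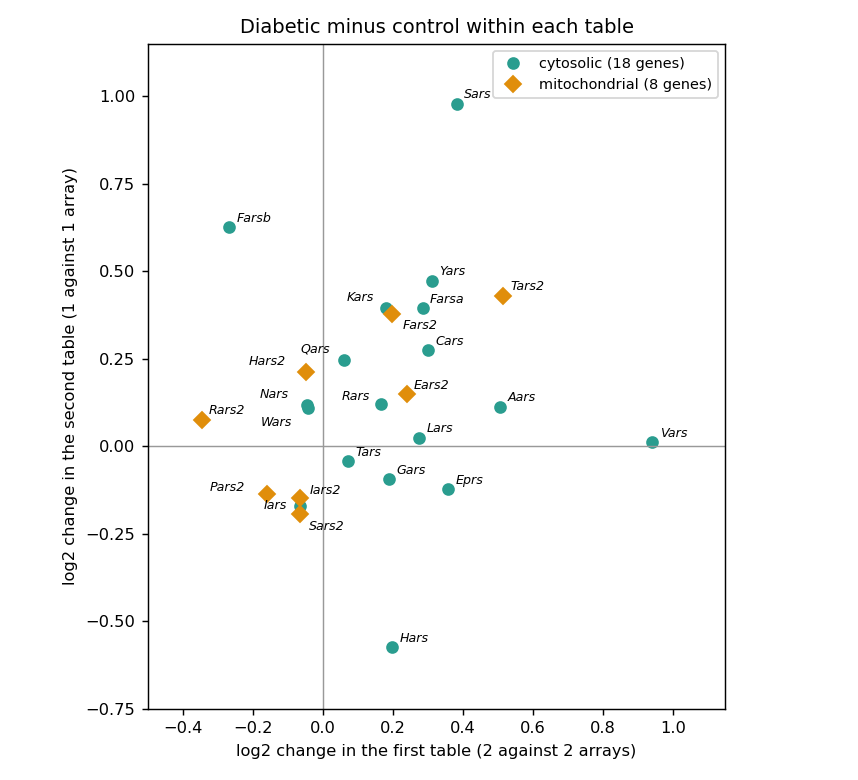
Log2 change of each synthetase in the first table, with 2 diabetic and 2 control brains, on the horizontal axis and in the second table, with 1 of each, on the vertical axis. Sars stands highest in the second table at 0.98, and Vars is farthest right at 0.94 with 0.012 in the second table. On the probe sets used, Farsb and Hars have opposite signs in the 2 tables.

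The second question was whether cytosolic synthetases differed from the mitochondrial ones. The cytosolic median change was 0.17 and the mitochondrial one -0.027, a difference of 0.20. On diabetic replicates 1 to 3, the cytosolic median stood 0.10, 0.27 and 0.12 above the control mean of its table, and the mitochondrial median stood at 0.076, -0.028 and 0.11. The difference between these medians was thus 0.023, 0.29 and 0.0034 on the 3 brains, the widest on diabetic replicate 2. Medians do not add up, so these values are not parts of the fitted 0.20. The controls of the first table differed from each other in the same measure, with -0.12 on control replicate 1 and 0.12 on control replicate 2. Without diabetic replicate 2 the medians were 0.095 and 0.048, with a difference of 0.048, and without control replicate 1 they were 0.093 and 0.067, with a difference of 0.026. The count of cytosolic changes above 0 was then 15 and 14 of 18.

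Each mitochondrial member can also be set beside the cytosolic enzyme of the same amino acid, Eprs serving as partner of both Ears2 and Pars2. The cytosolic change was the larger in 4 of 8 pairs and the smaller in 4. Serine gave the widest contrast, with 0.58 for Sars and -0.11 for Sars2, and the difference held its direction on each diabetic brain, at 0.27, 0.62 and 1.17. Sars2 itself had signals of 424, 445 and 210 on the control and 489, 350 and 179 on the diabetic replicates 1 to 3, which overlapped. Arginine, with 0.15 for Rars and -0.21 for Rars2, and proline, with 0.20 for Eprs and -0.15 for Pars2, lay the same way on all 3 diabetic brains. On diabetic replicate 3 these differences were only 0.045 and 0.015, and the other probe sets of Eprs gave 0.077 and -0.13. Threonine lay the opposite way on all 3, with 0.035 for Tars and 0.49 for Tars2. The second probe set of Tars2 gave 0.022, and -0.22 within the second table, so this contrast rests on the probe set used. Changes of Farsa and Fars2 differed by 0.064, those of Iars and Iars2 by -0.0088 and those of Eprs and Ears2 by -0.010, all less than the standard error of either gene. Those of Hars and Hars2 differed by -0.098, with 0.14, 0.35 and -0.79 on diabetic replicates 1 to 3.

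**Figure D4:**
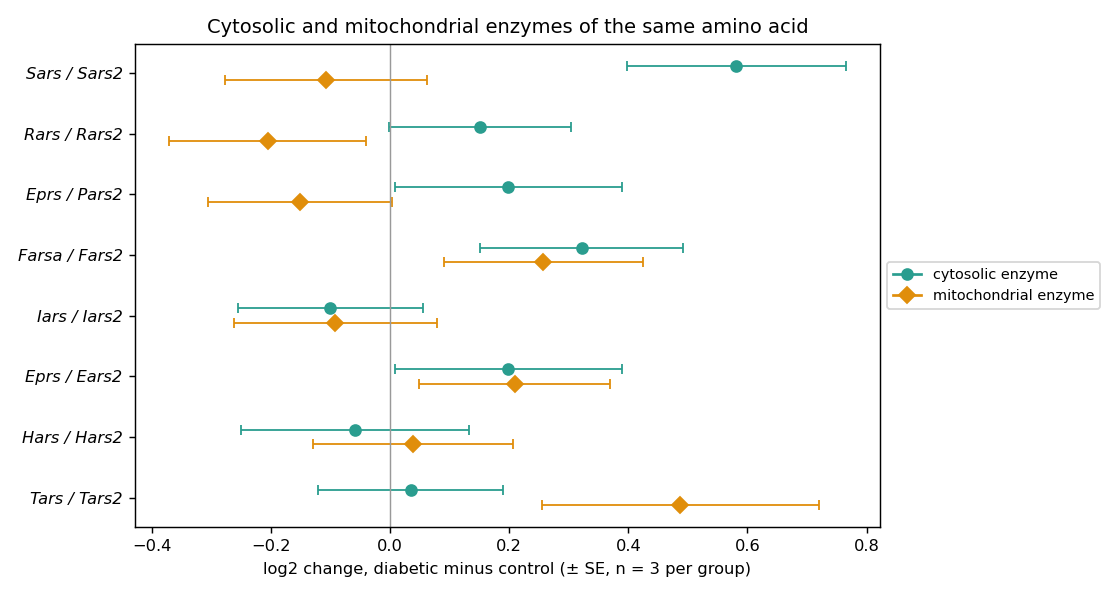
Fitted log2 change with its standard error (n = 3 per group) for the cytosolic and the mitochondrial enzyme of the same amino acid, 8 pairs ordered by the difference. Sars and Sars2 lie farthest apart in one direction, at 0.58 and -0.11, and Tars and Tars2 in the other, at 0.035 and 0.49.

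Cytosolic synthetases were then divided by what is known of them. Those known as targets of Atf4 had 10 of 11 changes above 0, with a median of 0.19 and Sars, Aars, Yars and Cars at the top, and the other cytosolic synthetases had 6 of 7 above 0, with a median of 0.15 and Vars and Farsa at the top. Medians of the Atf4 targets on diabetic replicates 1 to 3 were 0.19, 0.23 and 0.11, and those of the others 0.064, 0.28 and 0.25. Limma called 0 in either set, and neither was ahead on every brain. The median of the Atf4 targets was 0.074 without control replicate 1, 0.084 without diabetic replicate 2 and 0.094 with the mean over probe sets, where that of the others was 0.12, 0.098 and 0.16, so the order of the sets turned.

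Atf4 binds, with a partner of the C/EBP family, an element with the core TGATGNAA, which reads TTNCATCA on the other strand. RefSeq promoter windows of GRCm38.p6, from 250 bases before to 50 bases after each start, were at hand for 12 cytosolic and 14 mitochondrial members. Some of these members were among the symbols not found, and all windows were searched for the core on both strands. It was present in 5 of 7 windows of synthetases known as Atf4 targets (71.4%), in 0 of 5 windows of the other cytosolic members and in 0 of 15 windows of the mitochondrial members. By comparison, 3.97% of all 32851 windows and 2.09% of the windows of genes tested held it. A match is a stretch of letters and not a measured binding site, and the list was made of genes already known as Atf4 targets. The matches are shown with the core in capitals, 5′ to 3′ along the gene's strand. Genes are shown because their windows held the core, so that they share it is no result, and most members searched did not hold it. For Aars, Gars and Tars the 150 bases before the start are given, at chr8:111033692-111033841 (plus strand), chr6:55037851-55038000 (plus strand) and chr15:11399659-11399808 (minus strand).
Aars: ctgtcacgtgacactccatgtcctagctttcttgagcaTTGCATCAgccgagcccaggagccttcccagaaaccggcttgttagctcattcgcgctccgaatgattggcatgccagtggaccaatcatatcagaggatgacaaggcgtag
Gars: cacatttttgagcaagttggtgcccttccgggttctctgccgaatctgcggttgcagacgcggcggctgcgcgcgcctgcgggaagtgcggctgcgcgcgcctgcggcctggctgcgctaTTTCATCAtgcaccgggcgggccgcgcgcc
Tars: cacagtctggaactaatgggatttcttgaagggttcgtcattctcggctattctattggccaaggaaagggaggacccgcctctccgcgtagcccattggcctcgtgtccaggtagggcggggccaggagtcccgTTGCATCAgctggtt

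In Yars, in Iars and at a second place in Aars the core lay just after the start, and 30 bases around it are given, at chr4:129189895-129189924, chr13:49682126-49682155 and chr8:111033840-111033869, all on the plus strand.
Yars: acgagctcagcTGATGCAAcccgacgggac
Iars: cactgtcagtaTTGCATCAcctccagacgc
Aars, second match: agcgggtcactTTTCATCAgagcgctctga

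The core began 15 bases before the start in Tars, 30 in Gars and 112 in Aars, and at base 4 after it in Yars, base 8 in Iars and base 10 in Aars. Yars alone carried it in the forward orientation. Members with the core spanned most of the range of changes: Aars had 0.38 and Yars 0.37, while Gars had 0.094, Tars 0.035 and Iars -0.10. Sars, with 0.58, and Eprs were the known targets whose windows held no match to these letters.

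The rest of the Atf4 amino acid response had changes of a similar size to those of the cytosolic synthetases, with 17 of 21 above 0, a median of 0.19 and 0 called in limma. Of 27 genes of the list found, these 21 reached the minimum signal, and without that filter the median was 0.16. Without diabetic replicate 2 the median was 0.11, and without control replicate 1 it was 0.13. Trib3, a pseudokinase that restrains Atf4 itself, read 94.7, 140 and 57.6 on the control and 161, 251 and 186 on the diabetic replicates 1 to 3. Diabetic brains exceeded controls within both tables, by 0.66 and 1.28, and the fit put Trib3 at 0.87 ± 0.22 (SE, n = 3 per group; adjusted p of 0.527 in limma). Trib3 passed the minimum on its mean over all arrays, 149. Its signals on control replicates 1 and 3 lay under that minimum, while every diabetic signal lay above it. The 1.28 of the second table rests on the control signal of 57.6, so its size is uncertain. Slc3a2, the heavy chain of amino acid exchangers, had 0.75 ± 0.19, with signals of 970, 1085 and 785 on the control and 1671, 2315 and 1051 on the diabetic replicates 1 to 3. Slc38a2, a glutamine and alanine transporter, lay on the other side with -0.47 ± 0.23. Medians of the list were 0.20, 0.21 and 0.028 on diabetic replicates 1 to 3, and the third brain, where Sars was highest relative to its control, had 11 of 21 genes of the list above its control.

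Synthetases can also be grouped by structure. Several cytosolic synthetases are held with 3 scaffold proteins in a multisynthetase complex, and the 6 measured enzymes of that complex, Eprs, Iars, Kars, Lars, Qars and Rars, had 5 of 6 changes above 0 and a median of 0.17. Of these enzymes 0 of 6 were without overlap on the higher side, which is near the 11.3% of all genes. Scaffold genes Aimp1, Eef1e1 and Aimp2 had 0.24, 0.10 and 0.076. On diabetic replicates 1 to 3 the enzymes of the complex had medians of 0.070, 0.34 and 0.073, so that diabetic replicate 2 was the highest, as for the scaffolds with 0.18, 0.40 and 0.065. Without diabetic replicate 2 the median of the enzymes was 0.071, and without control replicate 1 it was 0.090. By the fold of the catalytic domain, class I members had 8 of 11 changes above 0 with a median of 0.15, and class II members 11 of 14 with a median of 0.067. The first table alone gave 0.17 and 0.18, which turns their order, and the class II median was 0.11 to 0.18 as single arrays were left out. Limma called 0 genes in any of these sets.

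The steps on either side of tRNA charging were described from lists of the pathway. Of 15 genes of tRNA maturation and modification, 10 lay above 0, with a median of 0.094, which was 0.038 without diabetic replicate 1. Mto1, which modifies mitochondrial tRNA, had 0.62 ± 0.22, which was 0.93 within the first table and -0.0018 within the second. Nsun2, a tRNA methyltransferase known from brain growth, had 0.44 ± 0.19, with 0.67 and -0.029 in the tables. Trdmt1, another tRNA methyltransferase, had -0.45 ± 0.18, its diabetic brains all lying below the controls of their table. The proofreading genes Aarsd1 and Dtd1, which clear wrongly charged tRNA, had 0.21 and 0.17.

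Factors that use charged tRNA were split by compartment. Of 5 cytosolic elongation factor genes, 4 lay above 0, with a median of 0.17, and 3 of 9 mitochondrial translation factor genes lay above 0, with a median of -0.094. Without control replicate 1 the cytosolic median was 0.073, and without control replicate 2 the mitochondrial one was 0.037, above 0. With the mean over probe sets the mitochondrial median was -0.018. Eef1d, a subunit of the elongation factor 1 complex that Vars joins, had 0.38 ± 0.16, with signals of 3049, 3314 and 2272 on the control and 3510, 4152 and 3507 on the diabetic replicates 1 to 3. All diabetic brains were above the controls of their table. Eef1a2, the elongation factor of mature neurons and muscle, had -0.57 ± 0.22 and lay wholly below. Among the mitochondrial factors, Gfm2, Qrsl1 and Gfm1 had -0.38, -0.37 and -0.24 and were without overlap on the lower side, 3 of 9 where 10.6% of all genes were, and 0 of 9 were on the higher side. Qrsl1 is the catalytic subunit of the enzyme that makes glutamine-charged tRNA in mitochondria, and the others are elongation and ribosome recycling factors. In limma 0 genes of these lists were called.

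**Figure D5:**
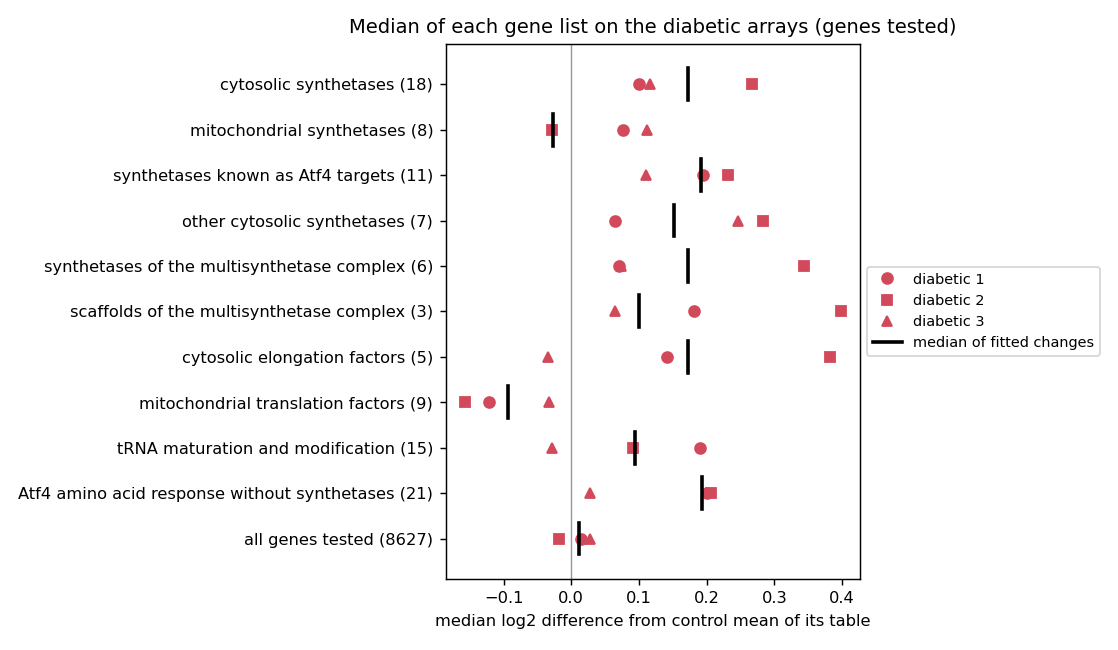
Median difference from the control mean of the table for each gene list on diabetic replicates 1 to 3, with the median of the fitted changes as a black bar and the number of genes tested in parentheses. Cytosolic synthetases lie above 0 on all 3 brains, at 0.10, 0.27 and 0.12, mitochondrial translation factors lie below 0 on all 3, and all genes tested lie between -0.018 and 0.028.

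Levels of cell type markers are given beside these values. Neuron markers had 7 of 8 changes below 0, with summed signals of 11229 to 12947 on control and 5968 to 14629 on diabetic arrays. Of these 8, 6 lay above 0 in the second table, and their median change, -0.31 over all arrays, was 0.0029 without diabetic replicate 2. Mesenchyme markers had 8 of 8 below 0, with sums of 13418 to 16835 and 11159 to 14368, and progenitor markers had 6 of 8 above 0, with sums of 17757 to 23749 and 20409 to 25053. Erythroid markers had 5 of 6 changes above 0, with sums of 41096 to 50365 on control and 47984 to 55953 on diabetic arrays. Their median of 0.17 was 0.0077 with quantile normalization within each table. All of these ranges of sums pool both array designs. Limma called 0 of these markers and of the endothelial, macrophage and muscle markers, and of 54 markers found none had a signal of 0 and 9 had a mean signal under 100. In whole brains, fewer cells of a type and less RNA per cell cannot be told apart, and the part of these cell types in the synthetase values was not tested. For RNA integrity, the Gapdh control probes gave ratios of 3′ to 5′ signal from 0.725 to 0.812 on control and from 0.701 to 0.815 on diabetic arrays.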

How the data were processed

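Total RNA of 6 brains was labelled with biotin and hybridised to Affymetrix mouse arrays, 1 brain per array. The values deposited by the authors are linear probe set intensity values in 2 tables of 22690 probe sets, 4 arrays in the first and 2 in the second. Signals came from GCOS, an Affymetrix program, per the submitters' processing notes, without a version or settings. How it handled background is unknown here and affects low signals most. Arrays hold no counting depth, so precision depends on their number, and standard errors of log2 changes had a median of 0.17.

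Each array was scaled to a trimmed mean of 500, with 2% of values removed at each end, a step that moved values by at most 0.0363%. Genes were named from the 20380 probe sets whose platform annotation lists 1 gene, and a gene with several kept the one with the highest mean of log2(signal + 32). The 8627 genes that reached a mean signal of 100 were fitted in limma 3.58.1 (R 4.3.3) with lmFit and eBayes, two-sided, with the table as a block, 3 residual and 6.48 prior degrees of freedom, Benjamini-Hochberg adjustment over all genes and a threshold of 0.05. Intervals are 95% intervals from that fit. Simulated data for this comparison, over 8627 genes of which 200 were changed, gave back 98.0% of true log2 changes of 1 and 100% of those of 2. Of the genes called there, 5.26% were false. Noise was drawn independently for each gene and array from the fitted spread. Changes as small as those of the synthetases, at most 0.63, were not simulated, so how many of that size would be called is unknown.

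Members and lists were chosen with earlier results of these data known, so lists are described by counts and medians without a set test. Arrays are given for the 6 cytosolic and 4 mitochondrial members of smallest unadjusted p and for members whose probe sets differ in sign, and list genes are up to 3 of smallest p. Arrays of Kars, Farsb, Pars2 and Sars2, and the motif search, were added after their values were seen. Alternatives tried were the pseudocount, the signal filter, the mean over probe sets, quantile and median normalization, the block, array weights, the first table alone and each array left out.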

Additional observations from a re-analysis of the deposited data

How the results depend on the processing

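Under all 18 alternatives limma called 0 of the synthetases and 0 of all genes, with the smallest adjusted p over all genes at 0.0550 (first table alone) or above, and from 100 (no block) to 883 (array weights) genes at an unadjusted p under 0.05. Of the 26 members, 18 kept their sign under every alternative run, Vars, Sars, Aars, Yars, Cars, Farsa and Tars2 among them. The replicate block and no block could not turn a sign, because the design fixes the fitted changes to be the same there. As single arrays were left out, the cytosolic median ran from 0.093 to 0.25, the mitochondrial median from -0.074 to 0.067, their difference from 0.026 to 0.29, the cytosolic changes above 0 from 14 to 16 and the cytosolic members without overlap from 6 to 10, the last of these without diabetic replicate 1. Cytosolic members without overlap numbered 4 with median centring and 5 with the mean over probe sets, and 13 cytosolic changes lay above 0 with array weights. The share of all genes without overlap was not computed for any alternative. Groups lie apart more easily with an array fewer, so the counts from fewer arrays cannot be set beside the share found over all arrays. Leaving out an array of the second table equals the first table alone. With array weights the mitochondrial median was 0.041 and the difference 0.067, and with a minimum mean signal of 200, which drops Ears2, the mitochondrial median was -0.092.

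The members that turned sign had small changes, and the cause was not tested. With the first table alone Farsb had -0.27, Hars 0.20, Nars -0.045, Wars -0.042 and Hars2 -0.048. With array weights Farsb had -0.12, Nars -0.10 and Tars -0.014. Nars had -0.00066 with quantile normalization within each table and -0.0015 over all arrays. As single arrays were left out, changes ran from -0.27 to 0.15 for Farsb, -0.18 to 0.20 for Hars, -0.052 to 0.10 for Nars, -0.054 to 0.10 for Tars, -0.042 to 0.080 for Wars, -0.048 to 0.17 for Hars2, -0.22 to 0.022 for Iars2 and -0.25 to 0.0082 for Sars2.

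With the replicate block in place of the table, limma called 0 genes and 627 genes had an unadjusted p under 0.05. Each table and each replicate number holds as many control as diabetic arrays. Fitted changes are therefore the same with either block or none, and the cytosolic median of 0.17 could not move. The differences between numbered arrays of the first table correlated at -0.0091 between the groups, and the second table, with 1 array per group, allows no such check, so same-numbered brains are taken to share only a number.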
